A study of Sus scrofa with 12 samples.

Results

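The comparison described here is that of the left ventricular septum between paced and control pigs, the region of the left ventricle that lies beside a lead fixed on the right ventricular septum. It rests on 6 of the 12 arrays of the series, 3 of septum labelled EXP (paced) and 3 of septum labelled CTL (control), chosen by their titles. It covers 20667 of the 27558 probe sets of the array, those with a mean log2 signal over the 12 arrays above the 25th percentile, and 10007 of the 12361 genes, each read by the probe set of its symbol with the highest mean. All pigs were female and 13 months old. Paced pigs had complete atrioventricular block, made with a thermocontrolled ablation catheter, and then a pacemaker in the VDD mode, in which each atrial beat that is sensed triggers a ventricular pace. Control pigs belonged to a sham group. The treatment text of the labels places a ventricular lead on the right ventricular septum and an atrial lead on the right atrial appendage in all pigs, so the controls may carry leads too. Tissue was taken after 6 months at the level of the papillary muscles. The series enrolled 12 pigs, 6 per treatment, with 3 arrays for each group, and the labels do not say which animal gave which array. The p-values below therefore measure the spread between these arrays, and the block, the pacing and the 6 months under both are compared as a whole with sham.

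The septum is normally activated early, through the bundle branches, and its fibres shorten with those of the free wall. When the ventricle is paced from the right side of the septum, the impulse spreads from muscle cell to muscle cell, the septum contracts before the free wall, and the late activated free wall works against a greater load. The genes usually followed in such hearts are those of the sarcomere, of calcium handling and ion channels, of the gap junctions, of wall stress (the natriuretic peptides), of fuel use and of the matrix. The labels give as the aim of the series a comparison of RNA changes between free wall and septum. The array reports a probe set's brightness after RMA, on a log2 scale, so that a difference of 1 is 2-fold, and values of different probe sets cannot be set against each other.

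The defining RNAs of ventricular muscle were bright in all 6 septum arrays. MYH7 (slow myosin heavy chain) read 12.51 to 12.59, MYL2 (ventricular regulatory light chain) 12.42 to 12.53, ACTN2 (the Z-disc actinin) 11.69 to 11.85 and RYR2 (the calcium release channel) 11.22 to 11.37. Markers of other cells were present at lower signals, among them DCN of fibroblasts (10.35 to 10.94), PECAM1 of endothelium (7.51 to 7.77) and C1QB of macrophages (6.53 to 7.16). The atrial light chain MYL7 was not dim in this ventricular tissue, at 10.69 to 11.55. Of the marker genes of red cells, neutrophils and nerve, HBB, S100A8, S100A9, UCHL1 and NEFL lay under the signal threshold of 3. Array medians lay between 4.31 and 4.45. Septum control array 1 stood apart from the other septum arrays of its group on the second principal component of the 12 arrays (24.27 against 5.15 and -3.13). Values without it are given beside many of the results that lean on it, but not beside all. On the first component, with 26% of the variance, septum paced array 3 lay at -19.23 against 14.61 and 13.6, septum control array 3 at -18.4 against -6.96 and 1.3, and free wall paced array 2, which enters the spread, at -45.27. In whole tissue, fewer cells of a type and less RNA per cell cannot be told apart.

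Pacing went with lower cholecystokinin RNA in the septum. CCK, a peptide hormone of gut and brain that the heart also makes, read 10.2, 10.81 and 10.86 in control septum, against 9.01, 8.66 and 8.45 in paced septum. The dimmest control array lay 1.19 above the brightest paced array. The fall was 3.78-fold (log2 difference -1.92, SE 0.22, 95% interval -2.4 to -1.43, limma adjusted p = 0.0224). CCK was the only gene of 10007 that passed an adjusted p of 0.05, a share of 0.00999%. The call depended on the fit and on single arrays. It was lost with septum arrays only (adjusted p = 0.202) and with the array number as a fixed replicate block (0.0618). It was also lost without septum control arrays 2 or 3 (adjusted p = 0.212 and 0.202), without septum paced arrays 2 or 3 (0.0671 and 0.194) and without 3 of the 6 free wall arrays (control array 2, 0.0568; paced arrays 2 and 3, 0.0556 and 0.0555). The log2 difference itself stayed between -2.13 and -1.79 over all 24 alternative fits.

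The receptors and partners of CCK gave little beside it. CCKBR, the gastrin and cholecystokinin B receptor, was close to the lower limit of the array, with 3.36, 3.27 and 3.38 in control and 2.97, 2.88 and 3.11 in paced septum (log2 difference -0.35, SE 0.14, limma adjusted p = 0.992). CCKAR was not analysed here. Carboxypeptidase E, CPE, which trims peptide hormones from their precursors, read 4.51, 4.62 and 4.86 against 5.77, 4.89 and 4.84, a difference carried by paced array 1. PAM, which amidates the end of such peptides, read 10.03 to 10.06 in control and 10.05 to 10.23 in paced arrays. Among 20 tested genes of a list of heart and nerve peptide hormones and their processing, CCK alone passed, 9 were above 0, 11 below, and the median log2 difference was -0.07 against 0.0067 over all genes. PNOC, the precursor of nociceptin, also had lower paced values with separate groups (4.56, 4.41 and 4.42 against 3.54, 3.91 and 4.26, limma adjusted p = 0.992).

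Among all 20667 probe sets 2 passed, a share of 0.00968%, and the second has no gene name. Probe set 15342515 read 6.73, 6.88 and 6.68 in control septum and 3.12, 3.22 and 3.01 in paced septum. The groups were 3.46 apart at their nearest, and no array stood between them. The fall was 12.5-fold (log2 difference -3.65, SE 0.33, limma adjusted p = 0.00347), and where the paced signal, close to the 25th percentile of these arrays (2.91 to 3.05), is background, that fold is a lower bound. This call held in all 23 alternative fits that kept the probe set. Free wall arrays had it at 6.57 to 6.73 in controls against 3.65, 4.57 and 2.7 with pacing. The effect there was -3.01, and the difference between the regions' effects was -0.64 (SE 0.47, limma adjusted p = 0.999).

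**Figure D1:**
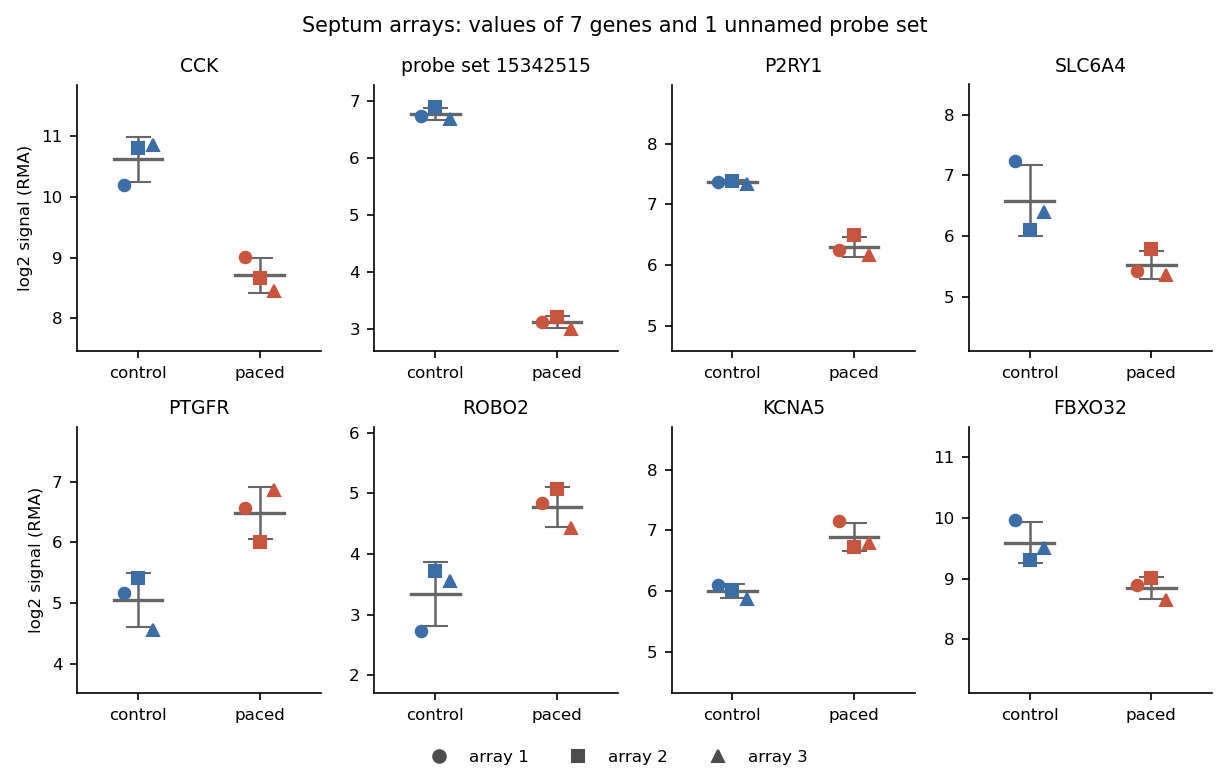
Log2 signal (vertical axis) of 7 genes and the unnamed probe set in each septum array, control (blue) and paced (red); the symbol gives the array number, the bar the mean and the whisker 1 SD of 3 arrays. CCK and the unnamed probe set passed the adjusted test. P2RY1, SLC6A4, PTGFR, ROBO2, KCNA5 and FBXO32 have separate groups too but did not pass.

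No other gene passed. The next smallest adjusted p of a gene was 0.288, for PDZD9. At an unadjusted limma p under 0.05 there were 232 genes higher (2.32% of those tested) and 219 lower (2.19%). Control and paced arrays did not overlap for 670 genes with higher paced values (6.7%) and for 470 with lower ones (4.7%). These are the shares against which each count of list members below is read.

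Most differences were small, and for most genes the data set a limit. The 95% interval lay inside 2-fold in both directions for 9627 genes (96.2%), the median half-width of the interval was 0.341 and the median SE 0.156. Log2 differences were above 0 for 5137 genes and below 0 for 4792, with a median of 0.0067. Only 21 genes had a difference beyond 2-fold, 9 higher and 12 lower. The 88 genes whose groups did not overlap at an unadjusted p under 0.01 were split evenly, 44 each way, and the genes named from here on come from them or from fixed lists, unless they are said to be chosen after their values were seen. None of these other genes passed, with adjusted p-values from 0.288 to 0.997, so their values are given as measured.

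**Figure D2:**
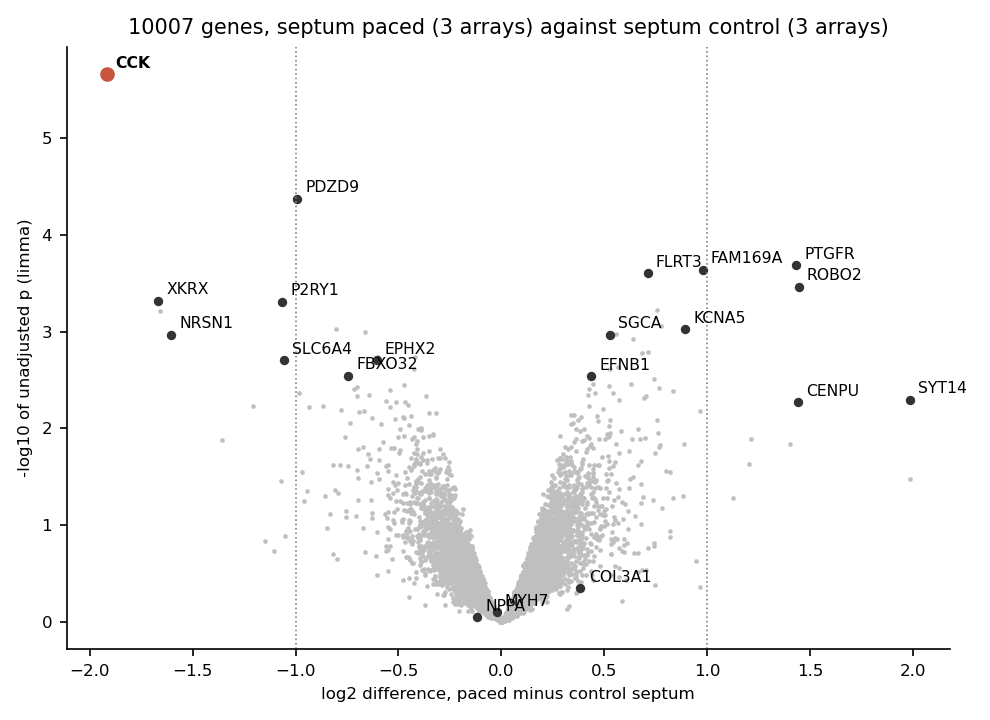
Log2 difference between paced and control septum (horizontal axis) against -log10 of the unadjusted limma p (vertical axis) for 10007 genes; dotted lines mark 2-fold. CCK (red) is the only gene that passed after adjustment; the black points are named genes, and NPPA, MYH7 and COL3A1 lie near the bottom.

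Receptors of hormones, transmitters and local mediators differed in both directions. A list of 29 tested neurohormonal and calcium-mobilising receptors and transporters had 14 members above 0 and 15 below (median -0.01). Groups did not overlap for 3 higher and 4 lower members, 10.3% and 13.8% of the list beside 6.7% and 4.7% of all genes. P2RY1, an ADP receptor that raises cell calcium, read 7.37, 7.39 and 7.33 in control and 6.24, 6.49 and 6.16 in paced septum (log2 difference -1.07, SE 0.22, limma adjusted p = 0.701). The control arrays were nearly equal, and the groups were 0.84 apart at their nearest. SLC6A4, the serotonin transporter, read 7.23, 6.1 and 6.4 against 5.42, 5.78 and 5.36 (-1.06, SE 0.27), and its difference was -0.73 without septum control array 1, the highest of the 6. Its groups were separate, which leaving out an array cannot change. ADRA1B, an alpha-1 adrenergic receptor, read 5.76, 5.86 and 5.76 against 5.54, 5.29 and 4.93 (-0.54, SE 0.16, limma adjusted p = 0.959). In the opposite direction stood PTGFR, the receptor of prostaglandin F2 alpha, with 5.17, 5.42 and 4.56 against 6.57, 6.01 and 6.86 (1.43, SE 0.27, limma adjusted p = 0.701). Thus 2 receptors that act through cell calcium, P2RY1 and PTGFR, had the smallest p-values of the list and opposite signs. RGS5, a brake on such receptors that marks pericytes, read 10.03 to 10.58 in control and 10.48 to 10.77 in paced arrays and overlapped.

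Guidance cues and neural adhesion molecules, which steer axons and also shape vessels and muscle, were above 0 for 22 of 32 tested members (median 0.14, and 0.07 without septum control array 1). Of these 32, 5 were higher and 2 lower with separate groups, 15.6% and 6.25% of the list beside 6.7% and 4.7% of all genes, and none passed. ROBO2, a receptor of the SLIT ligands, read 2.73, 3.71 and 3.56 in control and 4.84, 5.07 and 4.42 in paced septum (1.44, SE 0.29, limma adjusted p = 0.701). Control array 1 was the lowest, and without it the difference was 1.14. FLRT3, an adhesion molecule that binds UNC5 and ROBO receptors, read 2.99, 3.25 and 3.01 against 3.8, 3.93 and 3.65 (0.71, SE 0.14, limma adjusted p = 0.701). EFNB1, the membrane ligand ephrin-B1 that sits on the lateral side of heart muscle cells, read 4.59, 4.66 and 4.62 against 5.07, 5.02 and 5.09 (0.44, SE 0.12). Its arrays were even, with an SD of 0.035 in control and 0.036 in paced septum. On the low side were FLRT2, a relative of FLRT3 (5.1, 4.7 and 4.93 against 4.49, 4.4 and 4.48, log2 difference -0.45), and CNTN1, contactin 1 of nerve fibres (3.38, 3.35 and 3.79 against 2.34, 2.28 and 3.3, log2 difference -0.87). SLIT2, a ROBO ligand looked up for that reason after the values were seen, overlapped between groups (4.17, 5.24 and 4.24 against 5.33, 4.64 and 5.36).

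Several genes of neurons lay on the low side, while the marker list of Schwann cells and neurons lay near 0. NTRK3, the receptor of neurotrophin-3, read 5.06, 5.32 and 5 in control and 4.29, 4.39 and 4.71 in paced septum (-0.66, SE 0.15, limma adjusted p = 0.716). SYT1, a calcium sensor of transmitter release, read 3.79, 3.76 and 4.1 against 3.15, 3.25 and 3.57 (-0.56, SE 0.16), and NRSN1, neurensin of nerve cell vesicles, 5.03, 5.49 and 5.06 against 3.47, 3.01 and 4.29 (-1.6, SE 0.37). All 3 had separate groups. Of 10 tested markers of Schwann cells and neurons 7 were below 0 (median -0.05, and -0.01 without septum control array 1), SYT1 alone was lower with separate groups (10% of the list beside 4.7% of all genes), and the mean level of the list was 4.36 to 4.48 in control and 4.29 to 4.4 in paced arrays. Their part in these differences was not tested. CDH19, a cadherin of Schwann cells, was the highest of these markers (3.3, 3.79 and 3.62 against 3.79, 4.14 and 3.79, 0.34). CDNF, a secreted factor of the endoplasmic reticulum that protects dopamine neurons, lay on the other side, with 6.02, 6.6 and 6.33 against 7.12, 7.02 and 7.07 (0.75, SE 0.16, limma adjusted p = 0.701).

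The contractile apparatus differed by less than 2-fold almost throughout, as did most genes. Of all genes tested, 96.2% had a 95% interval inside 2-fold. For 16 of 17 tested sarcomere genes the 95% interval lay inside 2-fold, as it did for all 14 genes of gap junctions and intercalated discs and all 16 of the dystrophin complex, integrins and costameres. MYH7 differed by -0.02 (95% interval -0.22 to 0.17) and ACTA1, the skeletal actin that rises in loaded hearts, by 0.01 (-0.42 to 0.43). GJA1, connexin 43 of the gap junctions, read 10.69, 10.36 and 10.46 against 10.36, 10.23 and 10.34 (-0.19, 95% interval -0.54 to 0.15). MYH6, TNNT2 and ATP2A2 were not analysed here. Of the Z-disc genes 15 of 19 had such an interval, and XIRP2, an actin-binding protein of the intercalated disc, read 7.77, 7.71 and 6.86 against 7.79, 8.43 and 7.98 (0.62, SE 0.27). FHL1, which senses strain at the sarcomere, read 10.23, 8.92 and 8.91 against 8.64, 8.83 and 8.71: its difference of -0.63 was -0.19 without septum control array 1.

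Among the proteins that tie the sarcomere to the membrane more genes lay above 0 than below. Of the 16 genes of the dystrophin complex, integrins and costameres 12 were above 0 (median 0.1), 5 had higher paced values with no overlap, 31.2% beside 6.7% of all genes, and none had lower ones. SGCA, alpha-sarcoglycan, read 5.97, 5.95 and 5.89 in control and 6.61, 6.37 and 6.41 in paced septum (0.53, SE 0.12, 95% interval 0.26 to 0.79, limma adjusted p = 0.716). The other 4 were smaller: TLN2 (talin 2) differed by 0.25, TLN1 (talin 1) by 0.19, SSPN (sarcospan) by 0.18 and UTRN (utrophin) by 0.17, and each of these 95% intervals reached 0. Dystrophin itself, DMD, read 10.79 to 10.95 in control and 10.76 to 10.9 in paced arrays (-0.04, 95% interval -0.26 to 0.17). No member passed after adjustment.

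No gene of calcium handling or of the potassium channels passed, and the potassium channels differed in both directions. RYR2 read 11.37, 11.33 and 11.33 against 11.27, 11.22 and 11.3, separate groups with a difference of -0.08 (95% interval -0.31 to 0.15). PLN, phospholamban, the brake on the calcium pump, differed by less than 0.01 (95% interval -0.23 to 0.24), and CACNA1C, the L-type calcium channel, by -0.2 (-0.46 to 0.06). Of 17 tested calcium genes 16 had an interval inside 2-fold. KCNA5, which carries the ultrarapid delayed rectifier current best known from the atrium, read 6.1, 6.02 and 5.87 in control and 7.15, 6.73 and 6.79 in paced septum (0.89, SE 0.2, 95% interval 0.45 to 1.34, limma adjusted p = 0.716). The atrial marker list as a whole had a mean level of 6.37 to 6.61 in control and 6.54 to 6.77 in paced arrays, with 8 of 12 members above 0 and BMP10, a growth factor of atrial muscle, under the signal threshold. MYL7 and NPPA, which also mark atrium, overlapped between groups, and the part of atrial RNA was not tested.

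3 repolarising channels of the ventricle had differences below 0. KCNIP2, the subunit that sets the transient outward current, read 8.52, 8.66 and 8.63 against 8.28, 8.38 and 8.16 (-0.33, SE 0.11, limma adjusted p = 0.992). KCNH2, the rapid delayed rectifier, read 5.11, 4.91 and 4.99 against 4.66, 4.75 and 4.7 (-0.3, SE 0.11, limma adjusted p = 0.992). KCNJ2, the inward rectifier, overlapped (9.51, 9.51 and 9.05 against 9.14, 8.76 and 9.09, -0.36, SE 0.21). In the list of 23 potassium channel genes 3 were higher and 3 lower with separate groups (median -0.04). Each is 13% of the list, beside 6.7% and 4.7% of all genes. KCNN2, a calcium-activated channel, was among the higher ones (5.49, 5.73 and 5.54 against 6.09, 5.76 and 5.86).

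**Figure D3:**
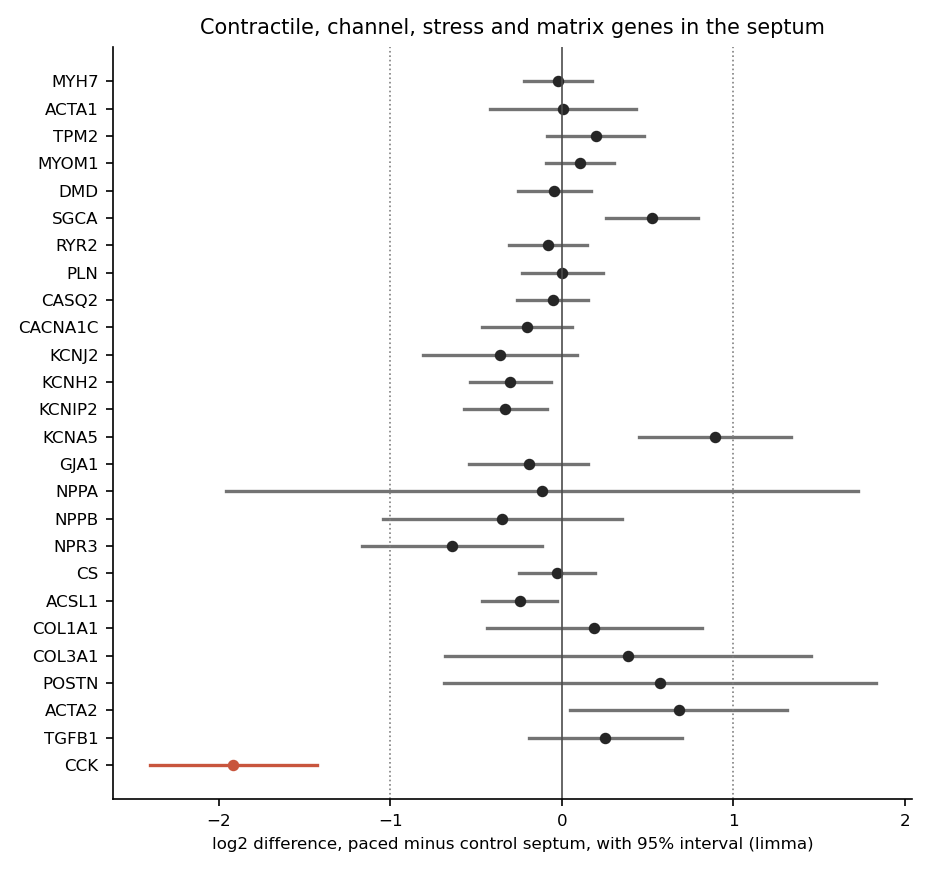
Log2 difference between paced and control septum (point) with its 95% limma interval (line) for 26 genes of muscle, channels, wall stress, fuel and matrix; dotted lines mark 2-fold. MYH7, PLN, RYR2 and CS lie within narrow intervals around 0, NPPA, COL3A1 and POSTN have intervals that reach past 2-fold, and CCK (red) is the only gene of these that passed.

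No wall stress gene passed, and NPPA, NPPB, NPR3 and RCAN1 were widely spread between control arrays. NPPA, atrial natriuretic peptide, read 6.08, 7.47 and 8.12 in control and 7.02, 7.12 and 7.18 in paced septum. The paced arrays lay within the range of the controls, and the 95% interval of the difference, -1.96 to 1.72, leaves room for more than 3-fold either way. The NPPA difference of -0.12 was -0.69 without septum control array 1. NPPB, the B-type peptide, read 4.58, 3.34 and 4.68 against 3.63, 3.72 and 4.21 (-0.35, 95% interval -1.04 to 0.35). Both peptides overlapped between groups. NPR3, the receptor that clears these peptides and marks the endocardium, read 8.98, 8.1 and 8.53 against 7.7, 8.06 and 7.93 (-0.64, SE 0.24, limma adjusted p = 0.992). Without septum control array 1 the NPR3 difference was -0.42. RCAN1, a readout of calcineurin activity, read 7.69 in control array 1 and 5.92 to 6.52 in the other 5 arrays. Of 11 genes of this list 8 were below 0 and only 7 had an interval inside 2-fold.

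Fuel genes were mostly a little below 0. Glycolysis and glucose uptake had 15 of 20 members below 0 (median -0.09), and the respiratory chain and citric acid cycle 13 of 17 (median -0.04), all 17 of the latter with intervals inside 2-fold. ALDOC, an aldolase of the brain type, read 4.79, 4.08 and 4.49 in control and 3.65, 3.54 and 4.06 in paced septum (-0.7, SE 0.2, limma adjusted p = 0.959). HK2, the insulin-regulated hexokinase, overlapped (5.7, 4.86 and 4.81 against 3.93, 5.07 and 4.28), as did the glucose carrier SLC2A4 (8.09, 7.63 and 7.69 against 7.65, 7.37 and 7.29). Without septum control array 1 the ALDOC difference was -0.535, and that of HK2 was -0.41 (-0.7 with it). Glycolysis was low in 2 of 20 members with separate groups (10%), beside 4.7% of all genes. The respiratory chain and citric acid cycle list was low in 3 of 17 (17.6%). Neither list had a higher member with separate groups.

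The 25 genes of fatty acid uptake and oxidation split into 12 above and 13 below 0 (median -0.04, and -0.06 without septum control array 1). Of these, PLIN2, the perilipin that coats droplets in most cells, read 6.74, 7.24 and 6.97 in control and 6.03, 6.7 and 6.01 in paced septum (-0.74, SE 0.23, limma adjusted p = 0.989). PLIN5, the perilipin of muscle, overlapped at 5.43, 5.26 and 5.48 against 4.82, 5.3 and 5.11 (-0.31). From the fat cell marker list instead, PLIN4 read 6.81, 6.92 and 6.88 against 6.38, 6.71 and 6.43 (-0.36, SE 0.14), and PLIN1 overlapped (-0.35). ACSL1, which activates fatty acids for oxidation, read 10.05, 9.93 and 9.96 against 9.68, 9.76 and 9.76 (-0.25, SE 0.1, limma adjusted p = 0.992). Thus PLIN2, PLIN4 and ACSL1 had separate groups, and PLIN1 and PLIN5 did not. Of the 25 fatty acid genes, 1 was higher and 3 were lower with separate groups, 4% and 12% of the list. The shares of all genes were 6.7% and 4.7%. Of the 8 fat cell markers, 0 were higher and 2 lower with separate groups (25%). ABCA1, the cholesterol exporter, read 6.6, 6.38 and 6.09 against 5.66, 5.95 and 5.35 (-0.7, SE 0.2), and OSBPL3, an oxysterol-binding protein, 7.11, 6.85 and 6.92 against 6.52, 6.57 and 6.53 (-0.42, SE 0.1). The uptake channel CD36 lay the other way, also with separate groups, at 11.3 to 11.5 in control and 11.54 to 11.57 in paced arrays (0.16). The fat cell list read 6.15 to 6.23 in control and 6.09 to 6.13 in paced arrays, with 4 of 8 members above 0 and LEP under the threshold, and its part was not tested.

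Single metabolic enzymes differed in both directions. EPHX2, the soluble enzyme that breaks down the vasoactive epoxides of arachidonic acid, read 7.11, 6.88 and 6.88 in control septum and 6.2, 6.59 and 6.26 in paced septum (-0.61, SE 0.15, limma adjusted p = 0.853). EPHX1, the microsomal epoxide hydrolase, singled out after its values were seen, read 8.64, 8.24 and 8.45 against 7.96, 7.83 and 7.61 (-0.64, SE 0.18). ALDH5A1, the mitochondrial dehydrogenase of the GABA pathway, read 8.24, 8.08 and 8.17 against 7.54, 6.99 and 7.62 (-0.78, SE 0.24). Separate groups were found for all 3, and the lowest control array of EPHX2 lay 0.29 above the highest paced array. LACTB2, a mitochondrial endoribonuclease, was higher (7.01, 6.75 and 6.5 against 7.45, 7.19 and 7.51, 0.63, SE 0.17), as was TSPO, the cholesterol-binding protein of the outer mitochondrial membrane (5.02, 4.88 and 5.67 against 6, 5.98 and 5.85, 0.75, SE 0.24).

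Protein turnover gave the ubiquitin ligase of muscle wasting. FBXO32 (atrogin-1) read 9.97, 9.31 and 9.51 in control and 8.89, 9.01 and 8.65 in paced septum (-0.75, SE 0.2, limma adjusted p = 0.943), and its difference was -0.56 without septum control array 1. FBXO40, another muscle ligase, read 10.09, 9.87 and 9.9 against 9.64, 9.85 and 9.74 (-0.21, SE 0.11). MSTN, myostatin, which limits muscle growth, overlapped (4.37, 5.18 and 4.04 against 6.1, 5.08 and 5.78). Of 19 genes of atrophy, ubiquitin ligases and autophagy 12 were below 0 (median -0.05, and -0.01 without septum control array 1). EEF2K, the kinase that slows translation, read 6.6, 6.78 and 6.44 against 7.11, 7.33 and 7.05 (0.56, SE 0.13, limma adjusted p = 0.716), and NSMCE1, a ubiquitin ligase of the SMC5/6 complex, 8.79, 8.82 and 8.76 against 8.4, 7.94 and 8.19 (-0.61, SE 0.15).

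No gene of the folding stress or clock lists passed. DDIT3, a transcription factor of the unfolded protein response, read 6.23, 6.34 and 6.09 against 6.05, 5.76 and 5.61 (-0.41), and DNAJB9, a chaperone of the same response, 7.73, 7.18 and 7.34 against 7.12, 7.01 and 6.96 (-0.39). CALR, calreticulin, lay the other way (8.38, 8.8 and 8.9 against 9.05, 8.93 and 8.91). Without septum control array 1 DNAJB9 differed by -0.23, and CALR by 0.11 (0.27 with it). The 29 heat shock and folding genes had a median of -0.02 (0.01 without septum control array 1). Of these, 2 higher and 4 lower members did not overlap, 6.9% and 13.8% of the list beside 6.7% and 4.7% of all genes. In the circadian list 12 of 15 genes were below 0 (median -0.09), and the median was -0.01 without septum control array 1, whose list mean of 6.03 stood above 5.77 and 5.76 in the other controls. NFIL3, a clock output factor, read 7.84, 7.04 and 6.17 against 6.08, 5.89 and 5.87 (-1.07, SE 0.45), a difference of -0.66 without septum control array 1, and ARNTL, the core clock activator, read 5.48, 4.43 and 3.96 against 4.11, 3.98 and 3.66 (-0.71, and -0.28 without that array). Of the 3 clock genes above 0, BHLHE41 differed by 0.57 and PER2 by 0.42. Both stayed above 0 without any single septum array. With separate groups 1 clock gene was higher and 1 lower, each 6.67% of the list beside 6.7% and 4.7% of all genes. The labels used here give no time of day at sampling.

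Collagens and matrix proteins were above 0 in 17 of 23 tested genes (median 0.18), none with separate groups, and the median was 0 without septum control array 1. The activated fibroblast genes split into 8 above and 8 below 0 (median 0.07, and -0.02 without that array), with NOX4, an oxidase, the lowest (5.66, 5.55 and 5.96 against 5.49, 5.26 and 5.38, -0.35). The mean level of the collagen and matrix list was 6.61 in control array 1 and 7.18 and 6.8 in the other controls. In paced arrays it was 6.94 to 7.11. COL3A1, a fibrillar collagen, read 6.02, 8 and 7.26 against 7.47, 7.68 and 7.28: the difference of 0.38 was -0.15 without septum control array 1. Control array 1 was thus the lowest of all 6. POSTN, periostin of activated fibroblasts, read 5.58, 7.52 and 6.3 against 7.12, 7.21 and 6.78, and its 0.57 became 0.13 without that array. LUM, the proteoglycan lumican, read 9.77, 10.85 and 10.2 against 11.18, 10.85 and 11.19 (0.8, SE 0.32), and 0.55 without it. COL1A1 differed by 0.19 (95% interval -0.44 to 0.82), and its dimmer probe set by 0.03. TGFB1, a driver of fibrosis, read 5.74, 6.01 and 5.84 against 6.35, 5.79 and 6.21, with paced array 2 inside the control range. The fibroblast marker list ran from 7.19 to 7.68 in control and 7.29 to 7.58 in paced arrays, with 8 of 13 members above 0 (median 0.07, and -0.02 without control array 1), and its part was not tested. CCN2 was not analysed here.

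Matrix proteases included lower members. ADAMTS15, a versican-cutting protease, read 4.28, 4.34 and 4.35 in control and 4.14, 3.4 and 3.68 in paced septum (-0.58, SE 0.19, limma adjusted p = 0.991). ADAMTS4, of the same family, read 4.26, 4.08 and 3.97 against 3.64, 3.55 and 3.85 (-0.42), and LOXL3, a collagen cross-linking oxidase, 4.01, 4.12 and 4.2 against 3.6, 3.87 and 3.81 (-0.35). Of the 28 genes of proteases and inhibitors 4 were lower and 1 higher with separate groups, 14.3% and 3.57% of the list. The shares of all genes were 4.7% and 6.7%, and the list's median was 0.01. TIMP3, an inhibitor, overlapped (8.17, 8.78 and 8.72 against 9.4, 8.65 and 9.1).

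Vascular genes showed both signs. FOXC2, a transcription factor of lymphatic and venous endothelium, read 5.58, 5.34 and 5.63 in control and 4.66, 4.88 and 4.6 in paced septum (-0.8, SE 0.18, limma adjusted p = 0.716). CCL21, the chemokine that lymphatic endothelium secretes, lay the other way, at 6.61, 6.92 and 6.95 against 8.08, 7.24 and 7.66 (0.83, SE 0.23, limma adjusted p = 0.959). Thus these 2 genes of lymphatic vessels had opposite signs, and STAB2, of the same list, was under the threshold. VASH1, an endothelial inhibitor of vessel growth, read 4.66, 4.58 and 4.68 against 4.21, 4.36 and 4.07 (-0.43, SE 0.11), and EMP2, a membrane protein that regulates VEGF, 7.81, 7.73 and 7.7 against 7.21, 7.3 and 6.93 (-0.6, SE 0.15). Both had lower values in all 3 paced arrays. FGFR1, a growth factor receptor, read 6.76, 6.47 and 6.58 against 7.06, 6.87 and 6.9 (0.34, SE 0.11). ACTA2, smooth muscle actin, read 5.26, 6.45 and 6.03 against 7.08, 6.23 and 6.47: its difference of 0.68 was 0.35 without septum control array 1. Smooth muscle and pericyte markers were above 0 in 8 of 11 genes (6.07 to 6.41 in control and 6.36 to 6.64 in paced arrays), and their median of 0.18 was 0.05 without septum control array 1. Vascular endothelial markers were above 0 in 7 of 11 (6.04 to 6.45 against 6.32 to 6.57), and their median of 0.19 was -0.02 without both control arrays numbered 1. What these cells contributed to the differences was not tested.

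The lists of immune genes leaned in different directions. The cytokine and chemokine list had 21 of 33 members above 0 (median 0.03, and 0.08 without septum control array 1), with 5 higher and 1 lower with separate groups, 15.2% and 3.03% of the list beside 6.7% and 4.7% of all genes. IL15, a lymphocyte growth factor, read 3.46, 3.62 and 3.82 in control and 4.28, 4.28 and 4.33 in paced septum (0.66, SE 0.26, limma adjusted p = 0.992). CCL26, an eotaxin that is not in this list, read 4.16, 3.94 and 3.63 against 3.06, 3.34 and 3.18 (-0.72, SE 0.2). Interferon-stimulated genes were below 0 in 15 of 21 cases (median -0.16), but their mean level ran from 4.91 to 5.5 in control and from 4.87 to 5.45 in paced arrays, and without septum paced array 2, the lowest, the median was 0.02, whereas without septum control array 1, the lowest control, it was -0.29. Macrophage markers lay at 4.7 to 5.08 in control and 4.88 to 4.89 in paced arrays, with 6 of 14 members above 0 and LYZ under the threshold. T and NK cell markers lay at 3.78 to 3.99 against 3.71 to 4.07, with 4 of 13 above 0.

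**Figure D4:**
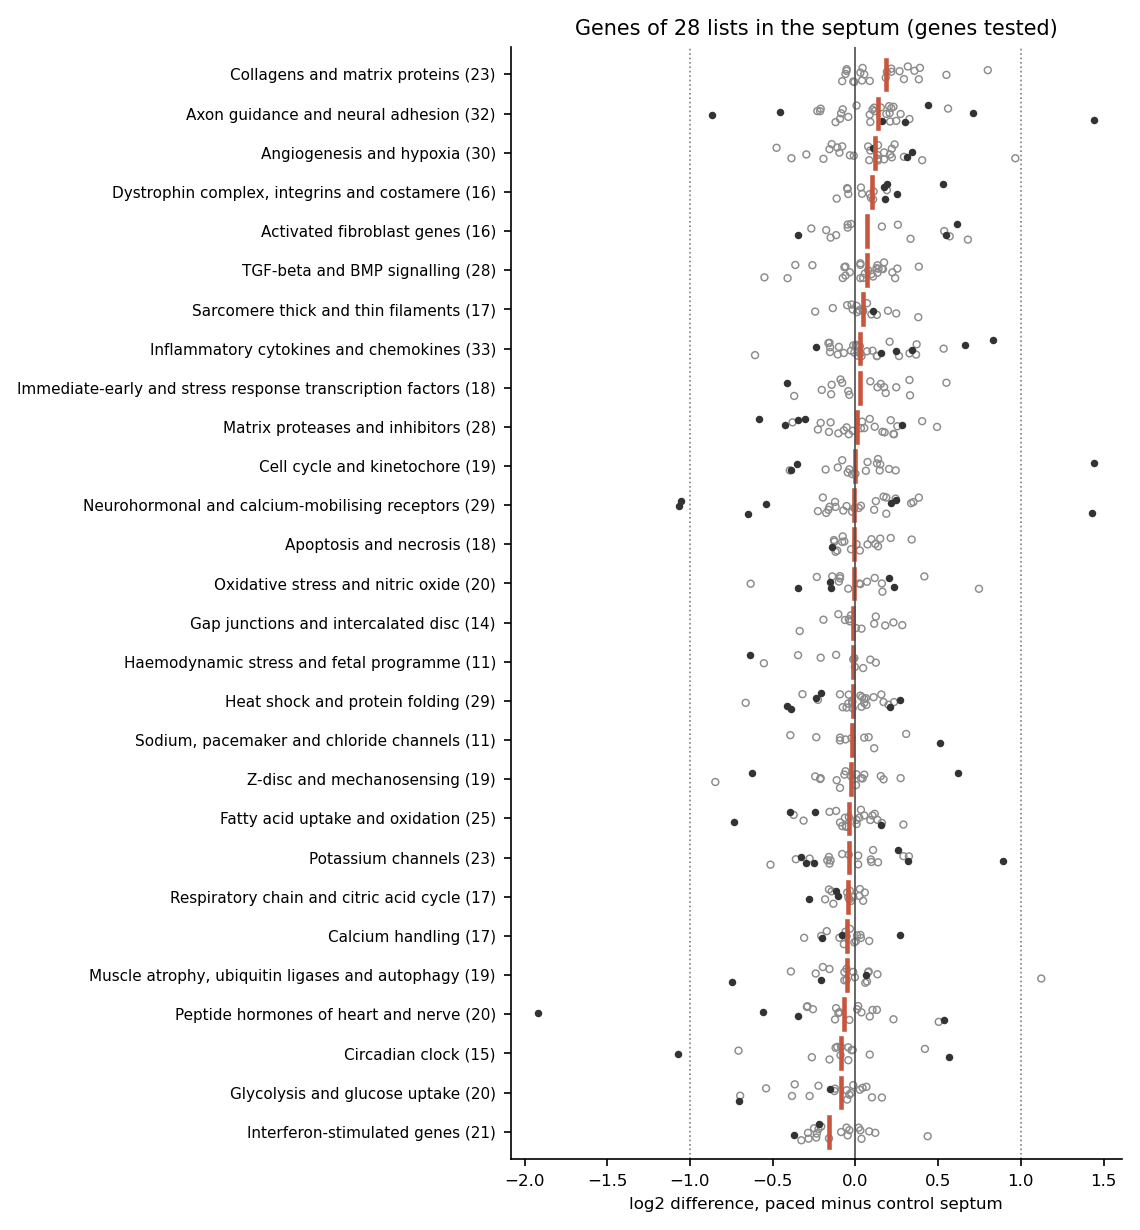
Log2 difference between paced and control septum of each tested gene in 28 lists (number of genes in brackets), ordered by the list's median (red bar). Filled points are genes whose 3 paced and 3 control arrays did not overlap, open points the others; dotted lines mark 2-fold. All medians lie between -0.16 and 0.18, and CCK is the lowest point, in the list of peptide hormones.

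Outside these lists, further genes with separate groups came from unrelated roles. On the low side were XKRX, an XK-related membrane protein (6, 5.03 and 5.42 in control against 3.14, 4.59 and 3.72 in paced septum, -1.67, SE 0.35), and LONRF3, a RING finger protein (6.65, 6.1 and 5.19 against 4.54, 5.18 and 4.6, -1.21, SE 0.36). The lowest control and highest paced array of LONRF3 were only 0.01 apart. PDZD9, a PDZ domain protein, read 4.1, 4.3 and 4.65 against 3.38, 3.26 and 3.43 (-0.99, SE 0.16), with the smallest unadjusted p after CCK (4.18e-05). PHACTR1, a phosphatase and actin regulator linked to arterial disease, read 6.1, 5.64 and 6.25 against 4.92, 5.58 and 4.54 (-0.98, SE 0.28). ASPHD2, a putative hydroxylase, read 3.72, 3.77 and 3.62 against 3.23, 3.34 and 3.12 (-0.47, SE 0.13).

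On the high side, CENPU, a centromere protein, read 3.67, 4.1 and 4.96 in control and 6.06, 5.28 and 5.71 in paced septum (1.44, SE 0.42, limma adjusted p = 0.959). Its list did not go with it: of 19 cell cycle and kinetochore genes 9 were above and 9 below 0, the median was 0, and CENPA, the centromeric histone, read 4.41, 4.32 and 4.6 against 4.05, 3.91 and 4.21 (-0.39). Thus CENPU and CENPA, both of the centromere, had opposite signs. STX6, a syntaxin of the trans-Golgi network, read 5.97, 6.28 and 5.89 against 6.61, 6.95 and 6.71 (0.71, SE 0.17), and TBC1D19, a putative Rab regulator, 4.51, 4.65 and 4.25 against 5.37, 5.39 and 4.98 (0.78, SE 0.18). Both serve vesicle traffic, and in both every paced array was above every control array. TANC2, a scaffold of synapses, read 3.81, 4.2 and 3.63 against 4.63, 4.69 and 4.55 (0.74, SE 0.2), and FAM169A 3.23, 3.51 and 3.27 against 4.35, 4.35 and 4.24 (0.98, SE 0.19). DNAL4, a dynein light chain, read 3.61, 3.82 and 4.01 against 4.53, 4.31 and 4.51 (0.64, SE 0.15), and IKBIP 5.97, 6.06 and 5.72 against 6.49, 6.35 and 6.61 (0.57, SE 0.15). The paced and control groups of these 4 genes were separate too. LRRC3B, a leucine-rich repeat protein, had a control SD of 0.01 (3.5, 3.48 and 3.49) and paced values of 4.47, 4.22 and 4.08 (0.77, SE 0.21), and CCDC122 read 3.3, 3.85 and 3.69 against 4.78, 4.41 and 4.55 (0.97, SE 0.29). The 9 genes with higher paced values in this paragraph kept their sign in every alternative fit. Genes named for separate groups must do so when 1 array is left out, so this adds no support.

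The 3 paced arrays were not alike. For 37 genes paced array 2 lay more than 1 above or below both other paced arrays while those lay within 0.5 of each other; the same count was 1 for paced array 1, 5 for paced array 3, and 18, 11 and 22 for control arrays 1, 2 and 3. This rule was set, and the genes below chosen, after the values were seen. SYT14, a synaptotagmin of vesicle traffic, shared the largest higher mean difference of all genes with MYL1 (1.98 each). It read 2.27, 2.54 and 2.43 in control and 5.44, 2.55 and 5.2 in paced septum. Paced array 2 was at the control level and the other paced arrays were far above it, and the SE of the difference was 0.58. SYT14 passed without septum paced array 2 (2.91, limma adjusted p = 0.00234). That fit drops the very array that stood apart, so it is no support for a difference. With all arrays the groups were only 0.01 apart, and all control values lay under the signal threshold of 3. MYL1 and FGF7 had the same order of the paced arrays, with wide control arrays. MYL1, a light chain of fast skeletal fibres, read 3.98, 4.7 and 2.59 against 6.66, 4.23 and 6.33, and FGF7, a fibroblast growth factor, 6.48, 6.14 and 4.27 against 7.88, 4.14 and 7.77. EML5, a microtubule protein, was low in paced arrays 1 and 3 alone (5.04, 4.84 and 4.86 against 3.54, 4.89 and 3.48). PDLIM3, a Z-disc protein, showed the same order, at 8.87, 8.25 and 8.22 against 7.19, 8.87 and 6.74. In NLRP4, of the inflammasome sensor family, control array 3 went with paced arrays 1 and 3 (3.3, 3.08 and 4.89 against 4.77, 2.76 and 4.69), and so it did in CLU, clusterin (9.81, 9.44 and 7.56 against 7.34, 8.81 and 7.21). The split therefore crossed the treatment groups in these genes. Of 7 tested markers of skeletal fibres MYL1 alone was above 0, and ATP2A1, MYOD1 and MYF6 were under the threshold.

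**Figure D5:**
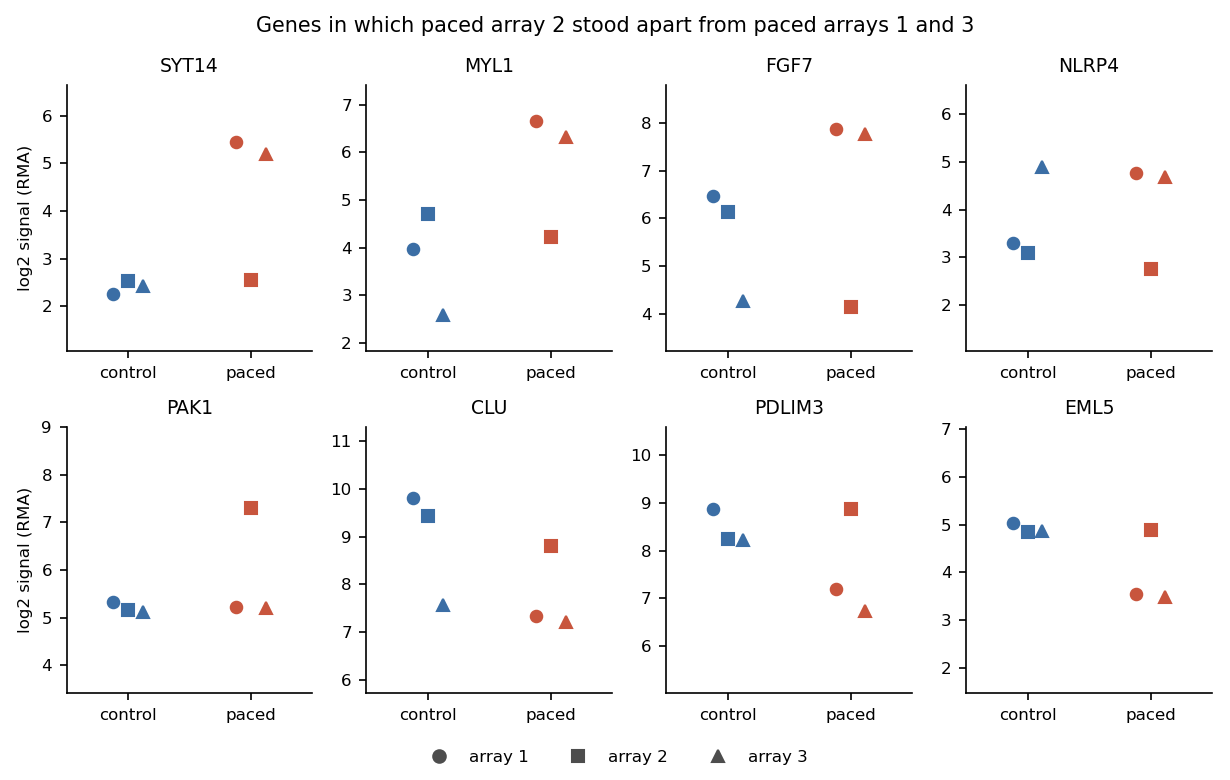
Log2 signal of 8 genes in each septum array, control (blue) and paced (red), the symbol giving the array number; all panels span the same number of log2 units. Paced array 2 (red square) stands apart from paced arrays 1 and 3 in every panel, below them in SYT14, MYL1, FGF7 and NLRP4 and above them in PAK1, CLU, PDLIM3 and EML5.

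Whether the septum effect differs from that in the free wall was tested as the difference of the 2 log2 differences. No probe set passed (0 of 20667, a share of 0%), and 569 had an unadjusted limma p under 0.05 (2.75%). This fit treats the regions as independent, although same-numbered control arrays of the 2 regions deviated together (correlations of 0.318, 0.252 and 0.245). Same-numbered paced arrays correlated at 0.089, -0.173 and -0.181. With treatment and number as a random replicate block (block correlation 0.031) the count was also 0. In the paced group that block joins arrays of little likeness, so its count cannot show how dependence between regions bears on the test. For CCK the free wall read 10.22, 10.73 and 10.88 in controls against 9.85, 10.16 and 10.19 with pacing, a log2 difference of -0.54 (SE 0.22), and the septum effect was lower by a further -1.37 (95% interval -2.06 to -0.68, limma adjusted p = 0.999). The control arrays of both regions covered nearly the same range for CCK, and all 3 paced septum arrays were below all 3 paced free wall arrays. FLRT3 differed by 0.71 in the septum and -0.2 in the free wall (difference 0.91, SE 0.19). KCNA5 differed by 0.89 and 0.01 (difference 0.89, SE 0.29), and FAM169A by 0.98 and 0.05 (difference 0.92, SE 0.26), none of them past the adjusted test. CCKBR and ASPHD2, low in the septum, had free wall differences of 0.28 and 0.27. XKRX, NRSN1, PDZD9, EPHX2 and EMP2 had about the same difference in both regions (-1.31, -1.47, -1.08, -0.63 and -0.62 in the free wall).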

How the data were processed

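Left ventricular RNA was extracted with Trizol and carried a biotin label, per the labels' protocols. The authors deposited log2 values. Affymetrix Expression Console 1.4 and RMA are named for them in the submitters' processing notes. RMA subtracts background, makes the arrays' distributions alike and condenses each probe set to 1 value. The array's build is not given in the sources used here.

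GEO's platform annotation table listed 1 gene symbol for 13323 of 27558 probe sets, several for 357 and none for 13878. RefSeq names (Sscrofa11.1) updated 7 symbols. Arrays have no count depth, and 3 per group limit the precision. Probe sets with a mean log2 under 3 (25th percentile) were left out. Group means of all 12 arrays were fitted with limma 3.58.1 (R 4.3.3), the free wall arrays serving for the spread and the test of the difference of effects. There were 8 residual and 3.68 prior degrees of freedom. P-values are two-sided, with Benjamini-Hochberg adjustment over 20667 probe sets. Intervals are 95% limma intervals, unadjusted. The code was tested on simulated data.

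Named genes were, in each direction, every called probe set and, among genes with an unadjusted p under 0.01 and separate septum groups, the 15 with the largest fold and the 15 with the smallest p, leaving out uncharacterised loci; the brightest member and up to 4 members with the smallest p of each of 28 pathway and 16 marker lists; and a fixed set of 20 genes. The members and lists were chosen with earlier results of these data known. Of 1097 listed genes, 761 were matched and 688 tested. Some further list members, such as MYL2, ACTN2, UTRN and NOX4, are given outside this rule, with their values known. Genes outside the lists and the rule are said to be chosen after their values were seen. Replicate numbers were not used to pair arrays. Deviations of same-numbered arrays correlated at 0.318, 0.252 and 0.245 between free wall and septum in controls, but at 0.089, -0.173 and -0.181 in paced arrays, and at 0.013, 0.09 and 0.217 between control and paced septum. Figures were drawn with matplotlib 3.10.9.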

Additional observations from a re-analysis of the deposited data

How the results depend on the processing

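The count of called probe sets was 2. It was 1 with septum arrays only, 1 over genes (where the unnamed probe set has no place) and 1 with the array number as a fixed block (replicate block). It was 4 without both control arrays numbered 1, and from 1 to 4 over the 12 fits that each left out 1 array. CCK kept its log2 difference of -1.92 but not its call with septum arrays only (adjusted p = 0.202) and with the replicate block (0.0618), and ranged from -2.13 to -1.79 without 1 array. These fits hold fewer arrays or fewer residual degrees of freedom than the fit of all 12 arrays. The other calls, such as SYT14 without septum paced array 2, came with fewer arrays. The labels do not say whether the numbers pair arrays. Each number occurs once in every group, so the fixed block left the log2 difference as it was and changed only its precision. The difference of effects gave 0 calls in all 23 alternatives run. The probe sets without overlap numbered 2178, and 1140 over genes, where fewer features were tested; the other 4 settings stayed within 1.5 times. The count of genes with an interval inside 2-fold stayed within 1.5 times of 9627 in all 24. Of 55 named genes not called, 1 was called in an alternative. The medians of 27 of 44 lists changed sign in at least 1 setting, so the direction of these 27 is not settled by the arrays. Signals near 3 lie near the array's 25th percentile, where background limits a fold.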

Other observations

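Of the 9935 tested probe sets that carry no symbol or several, 98 had separate septum groups at an unadjusted limma p under 0.01, 53 of them higher in paced arrays. After probe set 15342515 the largest of these differences was that of probe set 15332985, with 7.21, 7.63 and 7.5 in control and 4.33, 7.19 and 3.48 in paced septum. It shared the order of SYT14 in mirror image: paced array 2 stood with the controls and paced arrays 1 and 3 did not. Probe set 15307846 read 3.26, 3.05 and 3.19 in control and 4.16, 6.07 and 4.48 in paced septum, here with paced array 2 the highest. More even were probe set 15275608, with 3.93, 3.49 and 4.63 against 5.63, 5.36 and 5.59 (1.51, SE 0.31), and probe set 15217667, with 7.93, 7.26 and 6.81 against 5.87, 6.13 and 5.62 (-1.46, SE 0.27). None of these 4 passed (adjusted p of 0.701 to 0.959), and what RNA they read is not known here.

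PAK1, a kinase of the cytoskeleton chosen after its values were seen, read 7.3 in septum paced array 2 and 7.89 in free wall paced array 1, and 5.12 to 5.85 in the other 10 arrays. NLRP4 read 2.76 and 2.89 in the same 2 arrays and 4.69 to 5.93 in the other 4 paced arrays. Over 10007 genes, deviations from the group mean were most alike between septum paced array 1 and free wall paced array 3 (correlation 0.446), septum paced array 2 and free wall paced array 1 (0.51) and septum paced array 3 and free wall paced array 2 (0.51). In control arrays they were most alike between the same numbers (0.447, 0.356 and 0.346). Deviations of 3 arrays sum to 0, so these correlations are not independent of each other, and genes are not replicates. The numbers in the labels thus did not match the likeness of the arrays in the paced group, and the labels do not tie arrays to animals.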
